A study of Mus musculus with 583 samples.

Results

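The cells compared are those of a mouse embryonic stem cell culture that ranked highest and lowest for an amino-acid stress response score. Members were chosen by measured values: in each of 12 libraries the cells were ranked by the mean of log2(CPM + 1) over Asns, Psat1, Phgdh, Shmt2, Chac1, Trib3 and Ddit3, where CPM is a cell's count of the gene scaled to a fixed total of endogenous counts (counts per 1e6). The top 1 in 3 are called high cells and the bottom 1 in 3 low cells, so the levels of these 7 genes describe the choice and are not results. In Smart-seq2 A, for example, the lowest high cell scored 5.48 and the highest middle cell 5.47, and the lowest middle cell and highest low cell both scored 4.83. There were 191 high cells and 191 low cells among 583 cells in all, and the 201 cells between them entered no test. All cells were of the J1 line, which is 1 line of mouse embryonic stem cells, and were kept in 2i/LIF medium, which holds such cells in the ground state of pluripotency. The labels name no starvation or other treatment, and high and low cells shared genotype, medium and library and were told apart by their rank. The study prepared such cells with 6 single-cell methods, each as libraries A and B. The 4 libraries of Smart-seq C1 and Smart-seq2 cover whole transcripts and hold read counts (full-length libraries). The 8 libraries of CEL-seq2, of MARS-seq, of SCRB-seq and of Drop-seq cover transcript 3' ends and hold unique molecular identifiers, or UMIs (tag libraries). The labels do not say that libraries A and B came from separate cultures, so the p-values speak of the spread among libraries only, and that spread may be technical.

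The amino acid response is a branch of the integrated stress response. When uncharged tRNA accumulates, the kinase GCN2 phosphorylates the initiation factor eIF2, general translation slows, and the mRNA of the transcription factor ATF4 is translated more. ATF4 and its partners bind a composite element of the C/EBP and ATF type, and raise genes for amino acid synthesis, uptake and tRNA charging, and genes that brake the response. Of the ranking genes, Asns makes asparagine, Psat1, Phgdh and Shmt2 serve the serine and glycine route, Chac1 degrades glutathione, and Trib3 and Ddit3 are stress regulators.

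Summed endogenous counts of a class in a library ran from 6064978 to 11525004 reads for high cells and from 5558734 to 10892732 reads for low cells in the full-length libraries. Tag library sums were 224423 to 984943 UMIs for high cells and 155719 to 634814 UMIs for low cells. A group of 9 to 26 cells stood behind each sum. High cells were deeper than low cells: the median count per cell was higher in 11 of 12 libraries, by 0.17 ± 0.13 on the log2 scale (mean ± SD, n = 12, exact two-sided sign-flip permutation test, adjusted p = 0.00732 over 5 technical values). This count is also the denominator of the CPM in the score, so the difference is tied to the choice of cells. The rank correlation of score and count per cell ran from 0.05 in Smart-seq2 B to 0.59 in Drop-seq B. The highest difference was in Drop-seq B, with medians of 19034 UMIs in high cells and 14373 UMIs in low cells. The other 4 technical values, namely genes seen at 10000 counts and the percentages of mitochondrial, of ribosomal protein and of spike-in counts, did not pass, with adjusted p between 0.134 and 0.754 in the same exact permutation test. The naive markers were present in both classes of every library: Nanog had a median of 408.6 CPM in high cells (353 to 1117) and 423 CPM in low cells (186 to 1064). In Drop-seq, 29 of 42 barcodes in A and 12 of 34 in B lay 1 base from another barcode of the same library, so some of its columns may be the same cell, and values with such barcodes joined are given beside the results. Barcode letters were also shared between A and B of CEL-seq2 (26), MARS-seq (19) and SCRB-seq (21).

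**Figure D1:**
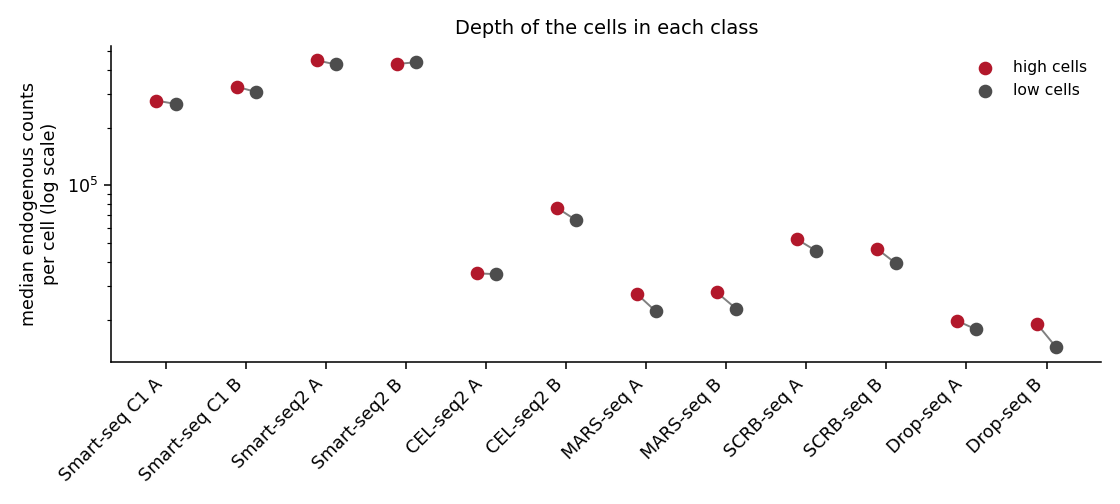
Median endogenous counts per cell (log scale) for high cells (left, red) and low cells (right, grey) of each of the 12 libraries, joined by a line. High cells are deeper in every library but Smart-seq2 B, and the distance is widest in Drop-seq B.

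The score was first checked against its own genes, with each of the 7 left out of the ranking in turn, as a description without a test. In the full-length libraries 6 of the 7 genes were higher in high cells than in low cells of all 4 libraries when the other 6 did the ranking. Chac1 had 13.6, 1.15, 68.99 and 57.1 CPM in the high cells of Smart-seq C1 A, Smart-seq C1 B, Smart-seq2 A and Smart-seq2 B. It had 0.676, 0.360, 2.00 and 4.78 CPM in the low cells of the same libraries. Psat1 had 266, 757, 486 and 523 CPM in those high cells and 216, 556, 310.2 and 227 CPM in those low cells. Some of these levels were near the floor. In Smart-seq C1 B Chac1 had 7 reads in high cells and 2 in low cells, from 10% of the cells of each class. Trib3 had 12 and 0 reads there. The class sums of the 6 genes thus moved the same way in the full-length libraries, partly on few reads, while Ddit3 was higher in only 2 of the 4. In the tag libraries the tie was loose: Asns was higher in high cells of 7 of 8 libraries, Shmt2 and Trib3 of 6, Chac1 of 5, Psat1 and Phgdh of 4, and Ddit3 of 3. The median Chac1 level there was 4.45 CPM in high cells and 4.30 CPM in low cells. Chac1 had no UMI in either class of Drop-seq A and B under this ranking. Phgdh shares 73.5% of the 31-base words of its longest transcript with other annotated genes, mainly processed pseudogenes, so its counts are uncertain.

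**Figure D2:**
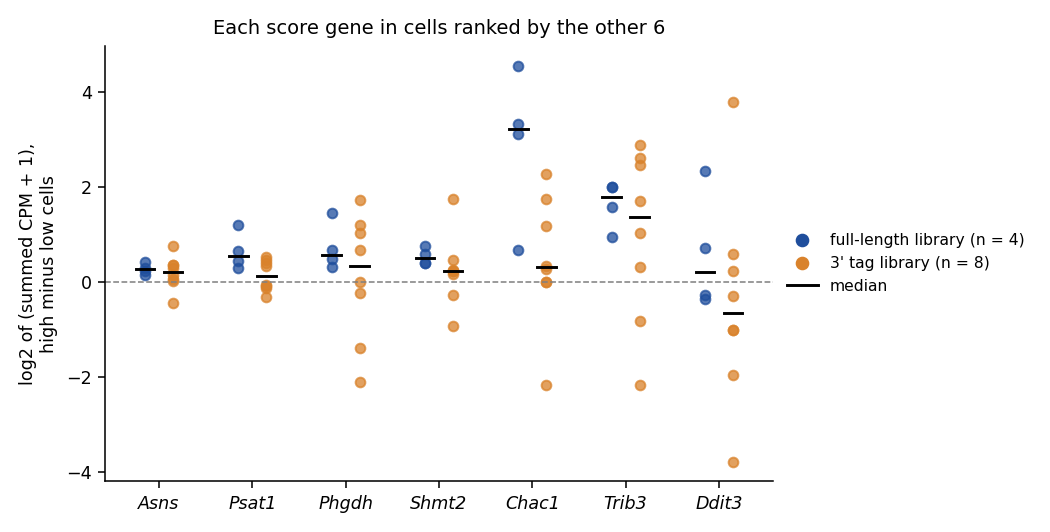
Each ranking gene in cells ranked by the other 6, as the difference of log2(summed CPM + 1) between high and low cells; points are libraries (blue full-length, orange 3' tag) and bars are medians. All 4 blue points lie above 0 for every gene but Ddit3, while orange points lie on both sides of 0.

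Among 7709 other genes tested over the 12 pairs of sums, 3 passed at an adjusted p below 0.05 (0.0389% of genes, edgeR quasi-likelihood test, library as a block). Nupr1 and Mthfd2 rose (0.0259% of genes) and Ephx2 fell (0.013%) in high cells. Without adjustment 505 genes had a p below 0.05, which is 6.55% of those tested, with 251 higher (3.26%) and 254 lower (3.29%) in high cells. On mean log2(CPM + 1) per cell, which counts each cell alike, limma gave 999 higher and 36 lower at an unadjusted p below 0.05, and the median of all genes was 0.21. In at least 10 of 12 libraries 2.7% of genes were higher in high cells and 2.8% lower. In all 4 full-length libraries 6.42% were higher and 6.8% lower. DESeq2 called 2 genes and limma voom with sample weights called 55, of which 38 were higher in high cells. The count of 3 is therefore small and depends on the tool, and most of what follows is described by unadjusted p and by how many libraries show a direction.

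Nupr1 encodes a small stress-induced chromatin protein and lies at chr7:126623249-126630861 on the minus strand of GRCm38. It had 57.1, 14.7, 48.3 and 97.9 CPM in the high cells of Smart-seq C1 A, Smart-seq C1 B, Smart-seq2 A and Smart-seq2 B. The low cells of these libraries had 19.1, 7.20, 10.9 and 10.6 CPM, so high cells were above low cells within each of the 4, although the ranges of the classes overlap between libraries. Over the tag libraries Nupr1 ran from 5.42 to 101 CPM in high cells (median 38.2) and from 6.42 to 45.6 CPM in low cells (median 17.4), with high cells higher in 7 of 8. The exception was CEL-seq2 B, with 5 UMIs in high cells and 9 UMIs in low cells. Over all libraries the log2 fold change was 1.38 ± 0.27 (SE, adjusted p = 0.0440, edgeR). In the median full-length library a single high cell held 32.7% of the Nupr1 counts of its class.

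Mthfd2 encodes the mitochondrial enzyme that oxidises methylene-tetrahydrofolate, downstream of Shmt2 in the one-carbon route, and lies at chr6:83305691-83325908 on the minus strand. It had 137, 283, 209 and 268 CPM in the high cells of the 4 full-length libraries in the order above, against 74.4, 209, 104 and 98.0 CPM in their low cells. The middle cells had 115, 214, 159 and 105 CPM, between the other classes in each of these libraries. In the tag libraries it ran from 68.8 to 178 CPM in high cells and from 71.4 to 167 CPM in low cells, and the classes overlapped, with 6 of 8 libraries higher in high cells. The log2 fold change was 0.62 ± 0.13 over all libraries (SE, adjusted p = 0.0440, edgeR). It was 0.94 ± 0.17 in the full-length fit and 0.27 ± 0.16 in the tag fit, and neither fit alone called it. The difference between these fits had an unadjusted p of 0.00436 and did not pass adjustment.

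Ephx2, the soluble epoxide hydrolase that also has a phosphatase domain, lies at chr14:66084374-66124500 on the minus strand. It was lower in high cells of all 12 libraries. The full-length high cells had 32.2, 131, 144 and 160.3 CPM and the full-length low cells had 55.6, 353, 164 and 224 CPM. In the tag libraries it ran from 20.4 to 64.98 CPM in high cells and from 23.3 to 96.3 CPM in low cells. The log2 fold change was -0.65 ± 0.13 (SE, adjusted p = 0.0440, edgeR), with -0.72 in the full-length fit and -0.58 in the tag fit.

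These calls stand near the threshold. With 1 of the 12 libraries left out the adjusted p ran from 0.0034 to 0.239 for Nupr1, from 0.0034 to 0.298 for Mthfd2 and from 0.0313 to 0.181 for Ephx2, with each direction kept in every such fit. No gene was called without Smart-seq C1 A, Smart-seq2 A, Smart-seq2 B, CEL-seq2 A, MARS-seq A or SCRB-seq B, 1 was called without MARS-seq B, and 5 without Smart-seq C1 B. Without both Smart-seq2 libraries the adjusted p was 0.428 for Nupr1, 0.478 for Mthfd2 and 0.135 for Ephx2. With Drop-seq barcodes joined the adjusted p was 0.0354 for Nupr1, 0.0761 for Mthfd2 and 0.0407 for Ephx2. Where the score was corrected for depth, none of the 3 passed (adjusted p 0.0791, 0.0967 and 0.334), while the log2 fold changes were 1.31, 0.57 and -0.49. Cells were also ranked after thinning each to 10000 counts, where the classes differed in depth by 0.0032 on the log2 scale. Many cells changed class: of the 191 high cells 112 were high cells in that ranking too, and 16 were low cells. In CEL-seq2 B 4 of 12 stayed high and 4 became low. With the thinned ranking Nupr1 had 1.71 (adjusted p = 0.00914, edgeR), Mthfd2 0.58 (adjusted p = 0.0236) and Ephx2 -0.46 (adjusted p = 0.927). With cells thinned before summing Mthfd2 had 0.97 (adjusted p = 0.00104), and Nupr1 and Ephx2 had too few counts to be tested. When cells were ranked by Chac1, Trib3 and Ddit3 alone, the log2 fold changes were 0.75 for Nupr1, 0.18 for Mthfd2 and -0.03 for Ephx2, and none passed.

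**Figure D3:**
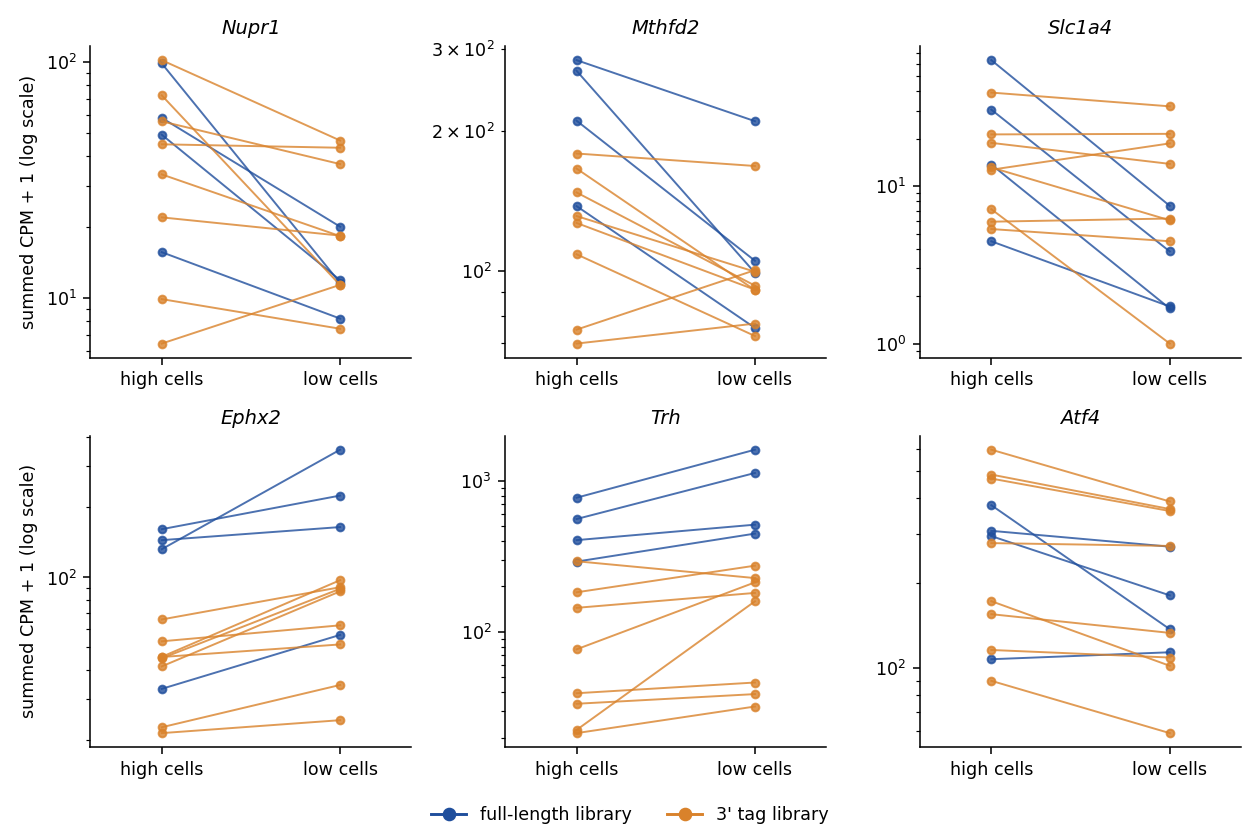
Summed CPM + 1 (log scale) of 6 genes in high cells (left) and low cells (right); each line is 1 library, blue full-length and orange 3' tag. Blue lines for Nupr1, Mthfd2 and Slc1a4 slope down from high to low cells without exception, Ephx2 lines slope up in all 12 libraries, and Atf4 and Trh have exceptions.

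Atf4 itself (chr15:80255184-80257541, plus strand), the transcription factor at the centre of the response, had a log2 fold change of 0.46 ± 0.10 (SE, unadjusted p = 8.4e-05, adjusted p = 0.108, edgeR). It was higher in high cells of 11 of 12 libraries. In Smart-seq2 A and B its level was 377 and 293 CPM in high cells and 136 and 180.1 CPM in low cells. In Smart-seq C1 A and B it was 306 and 107 CPM in high cells and 269 and 113 CPM in low cells, so the classes barely parted there. All 8 tag libraries had more in high cells, with a median of 224 CPM against 201 CPM in low cells. ATF4 is controlled in large part by translation, which these data do not measure.

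The other factors of the response were thinly covered. Cebpg, a dimer partner of ATF4, had a log2 fold change of 0.28 ± 0.24 (0.14 without Smart-seq C1 A and 0.48 without Smart-seq C1 B) and was higher in 7 of 12 libraries. Atf5, a factor induced with ATF4, was tested in the full-length libraries alone, at 0.16 ± 0.65. Cebpb was too low to be tested in any fit, with at most 2.17 CPM in full-length high cells and 0.503 CPM in full-length low cells. In the tag libraries 0 of 8 high sums and 1 of 8 low sums reached that fit's cutoff of 27.5 CPM for Cebpb. Sesn2, a leucine sensor that restrains mTORC1, had 0.07 ± 0.16, with -0.25 in the full-length and 0.41 in the tag libraries, and Ddit4, another brake on mTORC1, was tested in the full-length libraries alone, at 0.93 ± 0.73. None of those tested had an unadjusted p below 0.05.

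Of 27 genes listed as ATF4 pathway members and targets, 16 had enough counts to be tested over all libraries, and each of the 16 had a positive log2 fold change (median 0.31, against 0.01 over all genes tested). An unadjusted p below 0.05 with higher values in high cells was reached by 9 of the 16, or 56.2%, against 3.26% of all genes tested, and 1 (Nupr1) passed adjustment. The summed level of the list was higher in high cells of all 12 libraries, with a median of 2158 CPM in high cells and 1784 CPM in low cells. Gpt2, which makes alanine from pyruvate, had 59.03, 46.99, 102 and 103 CPM in full-length high cells and 61.3, 2.70, 34.98 and 29.04 CPM in full-length low cells. Its log2 fold change was 1.08 ± 0.29 over all libraries, and Smart-seq C1 A was the 1 full-length library where high cells were not above low cells. Eif4ebp1, an inhibitor of cap-dependent translation, had 0.22 ± 0.07 and was higher in 11 of 12 libraries. Cth, which makes cysteine from cystathionine, had 0.31 ± 0.11, and Herpud1, a component of endoplasmic reticulum degradation, had 0.78 ± 0.28. In the full-length fit 8 of 21 members had an unadjusted p below 0.05 with higher values in high cells, against 1.79% of all genes, and in the tag fit 3 of 10, against 2.29%. Over all libraries the count was 9 with Drop-seq barcodes joined and 10 of 17 without Drop-seq. It was 8 of 17 with the score corrected for depth, 5 of 14 without Smart-seq2, and 5 of 16 when cells were ranked by Chac1, Trib3 and Ddit3 alone. A member was tested only where its counts were high enough, and the list was drawn up with results of these data known, so no test was made over it.

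The cytosolic aminoacyl-tRNA synthetases charge tRNAs with their amino acids. Of 24 genes 23 were tested, 21 had positive log2 fold changes (median 0.15), and 12 had an unadjusted p below 0.05 with higher values in high cells, or 52.2%, against 3.26% of all genes tested. Their summed level was higher in high cells of all 12 libraries, at a median of 4404 CPM in high cells and 3991 CPM in low cells. Mars, for methionine, had 146, 160.3, 452 and 393 CPM in full-length high cells and 110.2, 90.1, 366 and 276 CPM in full-length low cells. Its log2 fold change was 0.40 ± 0.10 (unadjusted p = 0.00019), and DESeq2 called it. The 3' ends of Mars and of Ddit3, a ranking gene on the opposite strand, overlap in the annotation, and whether the counting used strand is not given in the sources used here, so reads of the overlap cannot be assigned.

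Cars, for cysteine, had a log2 fold change of 0.56 ± 0.14, with 0.40 ± 0.21 in the full-length fit and 0.77 ± 0.21 in the tag fit. Sars, for serine, had 0.42 ± 0.11 and Nars, for asparagine, 0.35 ± 0.09. Gars, Aars and Tars, for glycine, alanine and threonine, had 0.28 ± 0.08, 0.29 ± 0.09 and 0.25 ± 0.08, each higher in all 4 full-length libraries. None of these passed adjustment over all genes. Aars shares 22.7% of its 31-base words with other annotated genes. Nars stands in both the ATF4 list and the synthetase list. The 17 mitochondrial synthetases had no such count over all libraries: of 13 tested none had an unadjusted p below 0.05, and their median was -0.01. In the tag fit 1 of 5 was higher at that p (20%, against 2.29% of all genes). Over 38 alternatives 0 to 4 were higher at that p, and their median ran from -0.10 to 0.43. For the cytosolic enzymes 0 to 13 were higher, and the median ran from 0.04 to 0.40. In the full-length fit 7 of 24 cytosolic enzymes had an unadjusted p below 0.05 (29.2%, against 1.79% of all genes). In the tag fit 2 of 23 did (8.7%, against 2.29%), and all of these were higher in high cells. Over all libraries the count for the cytosolic enzymes was 10 of 23 without Drop-seq and also 10 with its barcodes joined. It was 2 higher and 2 lower of 23 when cells were ranked by Chac1, Trib3 and Ddit3 alone, and was 6 of 23 without Smart-seq2.

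**Figure D4:**
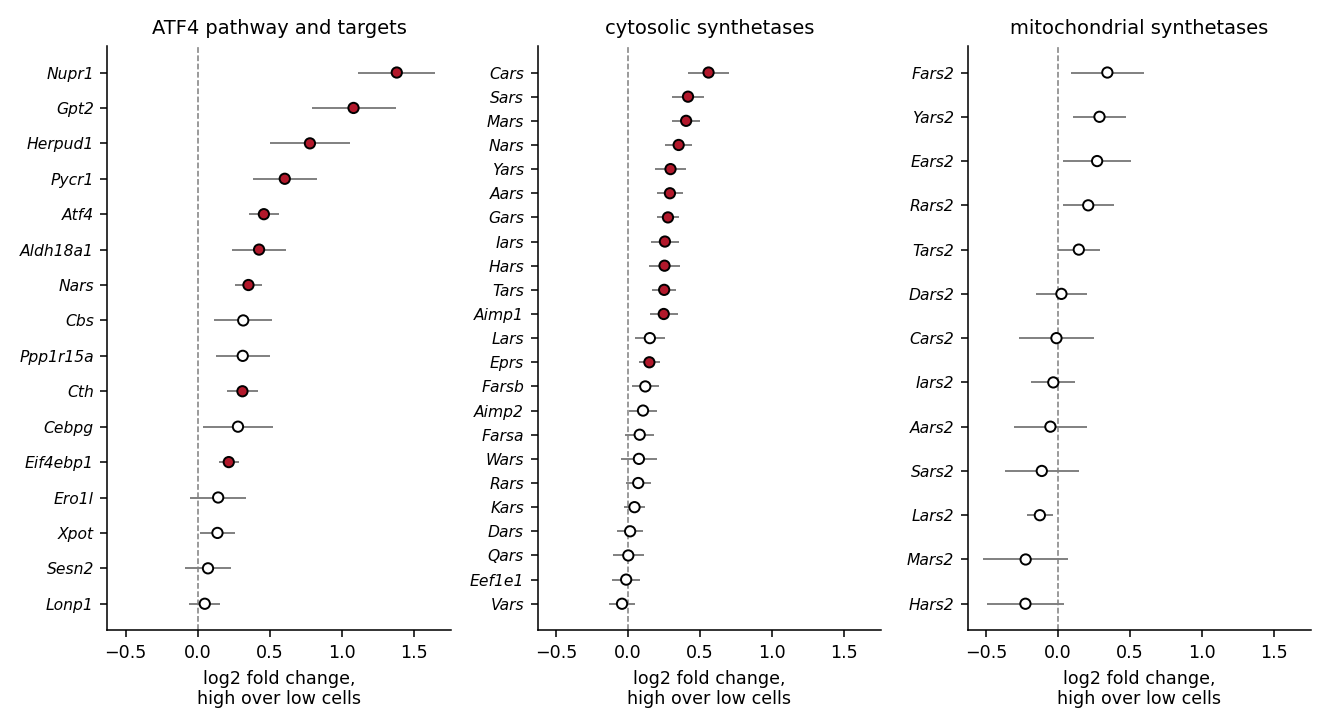
Log2 fold change of high over low cells, with its SE, for each tested gene of 3 groups in the fit over all 12 libraries; red points have an unadjusted p below 0.05. All 16 ATF4-list genes and 21 of 23 cytosolic synthetases lie right of 0, while the 13 mitochondrial synthetases lie on both sides.

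Promoters of these genes were searched for the letters TGATGNAA on both strands, a spelling of the composite C/EBP-ATF element, from 250 bases before to 50 bases after each RefSeq start (GRCm38.p6). The stretches below show the match, in capitals, in the 5 genes with the smallest p that hold one, among the called genes and the lists of ATF4 targets, serine and one-carbon enzymes, transporters and cytosolic synthetases, with 30 bases on each side as far as the start site. In all 5 the match reads in the reverse direction of the gene.
Nupr1: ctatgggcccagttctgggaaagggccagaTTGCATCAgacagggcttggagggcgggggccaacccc
Gars: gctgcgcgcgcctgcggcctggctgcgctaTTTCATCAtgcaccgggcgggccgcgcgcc
Aars: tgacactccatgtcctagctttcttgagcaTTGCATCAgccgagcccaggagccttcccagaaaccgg
Tars: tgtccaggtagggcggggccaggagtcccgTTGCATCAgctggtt
Herpud1: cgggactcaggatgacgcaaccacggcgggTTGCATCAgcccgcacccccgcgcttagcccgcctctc
The stretches are chr7:126625543-126625610 (minus strand), chr6:55037941-55038000 (plus), chr8:111033700-111033767 (plus), chr15:11399659-11399703 (minus) and chr8:94386287-94386354 (plus), in the order of the lines. The matches begin 110, 30, 112, 15 and 112 bases before the start site. Nupr1, Aars, Tars and Herpud1 hold TTGCATCA, and Gars holds TTTCATCA. A match was found for 4.51% of the 27025 genes with a window and for 2.30% of the 5684 tested genes with one. It was found for 8 of 23 ATF4-list genes (34.8%), 5 of 17 cytosolic synthetases (29.4%), 3 of 14 transporters (21.4%), 2 of 12 proline, aspartate and glutamate genes (16.7%) and 3 of the 7 ranking genes (Asns, Chac1 and Trib3). It was found for 0 of 17 genes of the serine and one-carbon list, which holds Mthfd2, and for 0 of 14 mitochondrial synthetases. Among genes with an unadjusted p below 0.05, it was found for 8.38% of 191 that were higher in high cells and 3.48% of 115 that were lower. The shares of the lists were taken over all members with a window, whatever their level in high and low cells, so they do not describe those cells. A match in this window is a description of letters, and these data do not show binding.

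Amino acid transporters bring amino acids into the cell. Of 19 genes 12 were tested over all libraries, and 9 had positive log2 fold changes (median 0.15). An unadjusted p below 0.05 was reached by 4 (33.3%, against 3.26% of all genes), namely Slc1a5, Slc7a1, Slc7a3 and Slc7a5, all higher in high cells. The summed level of the list was higher in high cells of 10 of 12 libraries. Slc7a1, the carrier of cationic amino acids, had a log2 fold change of 0.45 ± 0.16, and Slc7a5, the light chain of the leucine carrier, had 0.43 ± 0.16. Slc3a2, the heavy chain that pairs with Slc7a5, had 0.17 ± 0.10, and Slc7a3, another cationic carrier, had 0.24 ± 0.11. Slc7a1, Slc7a5, Slc3a2 and Slc7a3 were each higher in 9 or 10 of 12 libraries, and none passed adjustment. In the full-length fit 1 of 17 listed carriers was higher at an unadjusted p below 0.05 (5.88%, against 1.79% of all genes). There 8 of the 17 were negative. The tag fit had 1 of 10 (10%, against 2.29%), with 1 negative. Over all libraries the count was 3 of 12 with the score corrected for depth. It was 1 of 12 when cells were ranked by Chac1, Trib3 and Ddit3 alone, with 6 of 12 negative. Ranking on summed CPM gave 3 of 12 higher and 1 lower, with 6 of 12 negative.

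Slc1a4 (chr11:20302180-20332713, minus strand), a carrier of alanine, serine and cysteine, had the smallest p of the full-length fit and is singled out here after its values were seen. It had 12.7, 3.46, 29.6 and 62.1 CPM in the high cells of the 4 full-length libraries, from 81, 21, 341 and 657 reads. The low cells had 0.670, 0.720, 2.85 and 6.50 CPM, from 4, 4, 31 and 68 reads, so each library showed a gap. It entered the fit by its high cells: the filter asked for 1.19 CPM in 4 of 8 sums, which all 4 high sums and 2 of the 4 low sums reached, so its difference is a description. Its log2 fold change was 3.31 ± 0.45 (unadjusted p = 9.1e-05, adjusted p = 0.991 over 12549 genes, edgeR), and no gene passed adjustment in that fit, where 497 had an unadjusted p below 0.05 (3.96%). DESeq2 called 8 genes and voom 5 in the full-length libraries. Its tag libraries had a median of 11.9 CPM in high cells and 9.04 CPM in low cells, and 5 of 8 were higher. It was left out of the fit over all libraries by the filter on low counts. Slc7a11, the cystine carrier, was too low to be tested in any of these fits, but was higher in high cells of all 4 full-length libraries, at 0.314 to 2.17 CPM, against 0 to 0.360 CPM in low cells.

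The enzymes of synthesis outside the score split. In the serine and one-carbon list 15 of 21 genes were tested, and 2 had an unadjusted p below 0.05 (13.3%, against 3.26% of all genes), namely Mthfd2 and Psph, which frees serine from phosphoserine (0.40 ± 0.17, with 0.16 in the full-length and 0.64 in the tag libraries). Mthfd1l, the next mitochondrial enzyme after Mthfd2, had 0.04 ± 0.18. The summed level of this list was higher in high cells of 7 of 12 libraries, and the median over its tested genes was 0.04. In the proline, aspartate and glutamate list 5 of 15 tested genes had an unadjusted p below 0.05 (33.3%, against 3.26%), all higher in high cells. They were Gpt2 (above), Got1, which makes aspartate (0.26 ± 0.08, higher in 11 of 12 libraries), Pycr1 and Aldh18a1, which make proline (0.60 ± 0.22 and 0.43 ± 0.19), and Bcat1, which handles branched-chain amino acids (0.19 ± 0.07). Gpt2, Pycr1 and Aldh18a1 also stand in the ATF4 list, and Aldh18a1 had 0.27 without Smart-seq2 B. Pck2, the mitochondrial phosphoenolpyruvate carboxykinase, which was chosen after its values were seen, had 22.1, 19.1, 91.2 and 78.5 CPM in full-length high cells and 18.6, 8.46, 34.4 and 28.5 CPM in full-length low cells. Its log2 fold change was 1.09 ± 0.28 in the full-length fit and 0.18 ± 0.27 in the tag fit.

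Upstream of ATF4, the list of eIF2 kinases, eIF2 and eIF2B subunits had 2 of 15 tested genes with an unadjusted p below 0.05 (13.3%, against 3.26% of all genes), both higher in high cells. They were Ppp1r15b, a cofactor that removes the phosphate from eIF2, and Eif2s2, the beta subunit of eIF2 (0.23 ± 0.07, higher in 10 of 12 libraries). In the full-length fit 0 of 16 genes of this list were higher at an unadjusted p below 0.05 (1.79% of all genes were). In the tag fit 2 of 11 were (18.2%, against 2.29%). The endoplasmic reticulum chaperones, which mark the unfolded protein response that also feeds into ATF4, had a median of -0.01, with 9 of 20 tested genes positive. Only Sdf2l1, a cofactor of the chaperone BiP, had an unadjusted p below 0.05 there (0.65 ± 0.24). The summed level of the chaperone list was higher in high cells of 4 of 12 libraries. In the full-length fit 8 of 22 of its genes were positive (median -0.11), and in the tag fit 9 of 14 (median 0.03). Whether the unfolded protein response has a part in the score was not tested.

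Genes of glycolysis and the hypoxia response made a further list. Of 26 tested, 10 had an unadjusted p below 0.05 with higher values in high cells (38.5%, against 3.26% of all genes) and 1 with lower values (3.85%, against 3.29%), with a median of 0.15. In the full-length fit 10 of 28 were higher (35.7%, against 1.79%). In the tag fit 4 of 19 were higher (21.1%, against 2.29%), with a median of 0.06 and 7 of the 19 negative. Ldha, which makes lactate, had a log2 fold change of 0.26 ± 0.06 (adjusted p = 0.129, edgeR) and was higher in high cells of 11 of 12 libraries. Aldoa, Tpi1 and Gpi1, enzymes of the glycolytic chain, had 0.22 ± 0.06, 0.26 ± 0.07 and 0.25 ± 0.07. These 4 genes share 15.99% to 34.2% of the 31-base words of their longest transcripts with other annotated genes, so reads of copies could be among their counts. The summed level of the list was higher in high cells of 11 of 12 libraries, with a median of 9073 CPM in high cells and 8331 CPM in low cells. The count was also 10, of 25 tested, with the score corrected for depth, and was 3 of 24 when cells were ranked by Chac1, Trib3 and Ddit3 alone.

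Ndufa4l2, a hypoxia-induced mitochondrial protein and also singled out after its values were seen, had a log2 fold change of 1.20 ± 0.30. Its exons overlap those of the ranking gene Shmt2 on the opposite strand, so its value may hold reads of Shmt2. Mt2, a metallothionein that binds zinc, had 0.33 ± 0.07 (adjusted p = 0.0786, edgeR) and was higher in 10 of 12 libraries. Spp1, which encodes the secreted protein osteopontin and was chosen after its values were seen, had 0.30 ± 0.07 and was higher in 11 of 12.

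Trh, which encodes the thyrotropin-releasing hormone precursor, was lower in high cells of 11 of 12 libraries and was chosen after its values were seen. It had 404, 291, 558 and 772 CPM in the high cells of the full-length libraries and 512, 447, 1127 and 1607 CPM in their low cells. In the tag libraries it ran from 20.4 to 293 CPM in high cells and from 31.1 to 274 CPM in low cells, with high cells lower in 7 of 8. In Drop-seq A it had 7 UMIs in high cells and 44 UMIs in low cells. Its log2 fold change was -0.63 ± 0.14 (adjusted p = 0.134, edgeR) over all libraries and -0.76 ± 0.12 in the full-length fit.

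Among mitotic genes, 39 of 52 had negative log2 fold changes (median -0.08), and 5 had an unadjusted p below 0.05, all lower in high cells (9.62%, against 3.29% of all genes tested). In the tag fit 20 of 48 were positive (median -0.05). Ranking on thinned cells gave 19 of 52 positive (median -0.04), and ranking on summed CPM 23 of 51 (median -0.0065). With the score corrected for depth 7 of 51 were positive (median -0.12). Cenpa, the centromeric histone, had -0.33 ± 0.10, and Cenpe, a kinetochore motor, had -0.31 ± 0.10. Both were lower in high cells of 10 of 12 libraries. The summed level of the mitotic list was lower in high cells of all 4 full-length libraries, at a median of 10920 CPM in high cells and 11410 CPM in low cells, and in 4 of 8 tag libraries. Genes of G1 and S phase had a median of 0.01, with 1 of 44 at an unadjusted p below 0.05.

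Genes for cytosolic ribosomal proteins stood at a median of -0.05 over all libraries, where 71 of 86 were negative and 3 were lower at an unadjusted p below 0.05 (3.49%, against 3.29% of all genes). This direction turned when cells were ranked on thinned counts, with 59 of 86 positive (median 0.03), and when the score was corrected for depth, with 47 of 86 positive (median 0.01). In the tag libraries the median was -0.11, with 81 of 87 negative and 12 at an unadjusted p below 0.05 (13.8%, against 4.07% of all genes in that fit). Rps28 had -0.20 ± 0.07 over all libraries and was lower in 11 of 12. The same list had a median of 0.02 in the full-length libraries, with 51 of 86 positive and none lower at an unadjusted p below 0.05 (2.18% of all genes). The summed level of mitochondrially encoded genes was lower in high cells of all 4 full-length libraries, with a median of 34965 CPM in high cells and 39206 CPM in low cells, and of 3 of 8 tag libraries.

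The core pluripotency factors had values near 0. Pou5f1, Sox2 and Nanog had log2 fold changes of -0.02 ± 0.09, 0.00 ± 0.08 and 0.11 ± 0.08. Among 34 tested naive and core genes 4 had an unadjusted p below 0.05 with higher values in high cells (11.8%, against 3.26% of all genes) and 1 with lower values (2.94%, against 3.29%). Of the 34, 22 were positive and 12 negative (median 0.05), and in the full-length fit 19 of 37 were positive and 18 negative (median 0.02). Klf5 and Tbx3, transcription factors of the naive network, had 0.47 ± 0.12 and 0.37 ± 0.10, with adjusted p of 0.193 and 0.2 by edgeR. In the primed and formative list 6 of 7 tested genes were negative (median -0.09). There 7 of 10 were negative in the full-length fit (median -0.48) and 4 of 6 in the tag fit (median -0.02). Markers of other cell types differed in level. The 14 genes of the 2-cell-like list found in the table summed to a median of 2.65 CPM in high cells (0 to 207) and 3.54 CPM in low cells (0 to 475). Their sum was higher in high cells of 6 libraries and lower in 4, the other way from the medians. The 8 mesendoderm genes summed to 16.1 CPM in high cells and 26.5 CPM in low cells, with less in high cells of 8 of 12 libraries. The 10 trophectoderm genes summed to less in high cells of 10 of 12 libraries, at a median of 83.0 CPM in high cells and 86.3 CPM in low cells. Single members differed from that sum: in the full-length fit 4 of 6 tested were positive and 2 negative (median 0.64). The 1 member tested over all libraries had -0.46. The 6 neural genes summed to a median of 83.2 CPM in high cells and 75.4 CPM in low cells, with more in high cells of all 4 full-length and 3 of 8 tag libraries. The 12 primitive endoderm genes summed to a median of 248 CPM in high cells (138 to 717) and 244 CPM in low cells (122 to 646), with more in high cells of all 4 full-length and 4 of 8 tag libraries. Sparc made most of that sum (a median of 199 CPM in high cells and 197 CPM in low cells), while the defining factors Gata4, Gata6 and Sox17 had medians of 0 in both classes. The 11 fibroblast genes summed to 613 CPM in high cells (312 to 1044) and 624.9 CPM in low cells (238 to 875), with more in high cells of 6 of 12 libraries. Fn1 and Vim led that sum, at medians of 375 and 143 CPM in high cells and 438 and 123 CPM in low cells, while Col1a2, Col3a1 and Dcn had medians of 0 in both classes. None of these marker lists had a gene that passed adjustment, and their part in the results was not tested.

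**Figure D5:**
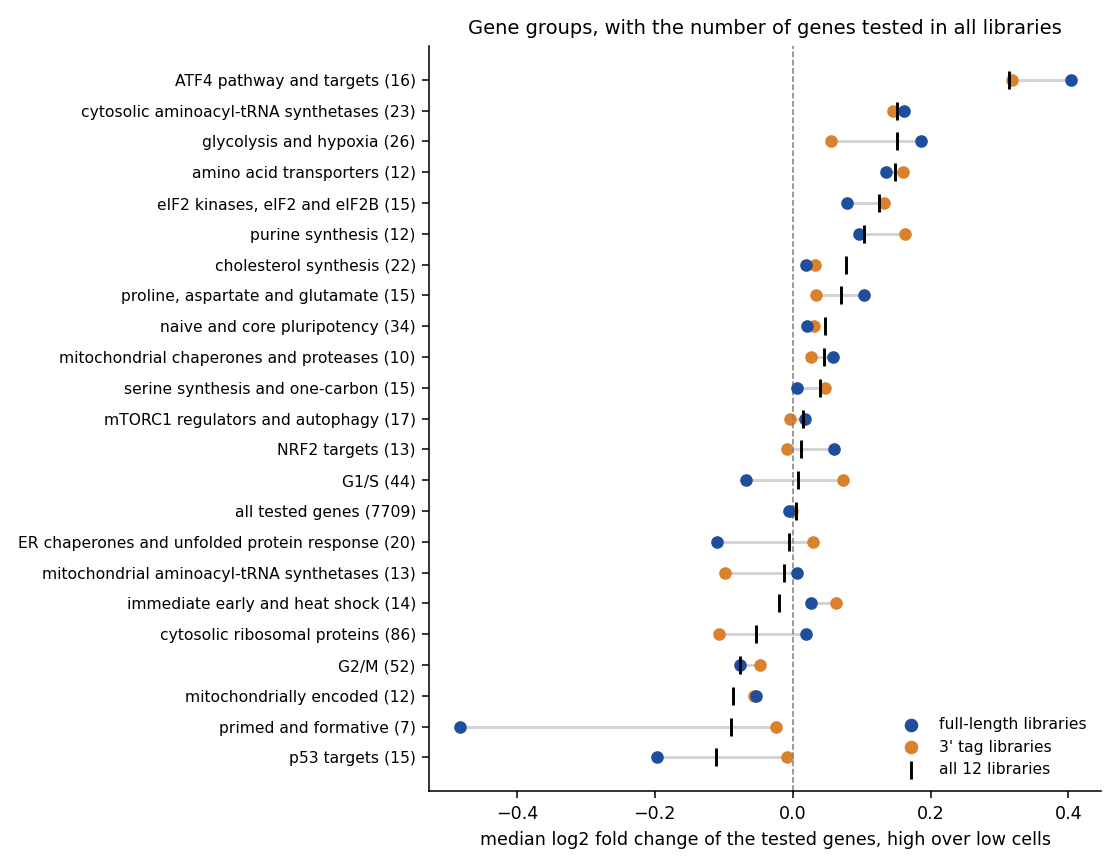
Median log2 fold change, high over low cells, of each gene group with at least 5 genes tested over all libraries (their number in brackets), in full-length libraries (blue), tag libraries (orange) and all 12 libraries (black bar). The ATF4 list lies at 0.40, 0.32 and 0.31, right of the other groups drawn, smaller lists such as the neural genes being left out, and the cytosolic synthetases lie at 0.16, 0.15 and 0.15.

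The kinds of library were set side by side in a fit of the difference of the class effect. No gene passed adjustment among 7709, and 297 had an unadjusted p below 0.05 (3.85%), with 0 calls also by DESeq2 and by voom. Nupr1 had 2.01 ± 0.39 in the full-length and 0.73 ± 0.29 in the tag libraries, and the difference had an unadjusted p of 0.0094. Gpt2 had 1.70 ± 0.56 and 0.43 ± 0.26, and the difference had an unadjusted p of 0.0151. In the tag fit alone no gene passed among 5361, and 341 had an unadjusted p below 0.05 (6.36%). DESeq2 called 0 there, and voom called 9, all lower in high cells. The larger values of Nupr1, Mthfd2 and Gpt2 in full-length libraries are therefore not shown to differ from those in tag libraries once all genes are counted.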

How the data were processed

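RNA of single J1 cells was measured by 6 methods in 12 libraries. Per the labels and the values, the authors deposited whole-number counts per gene and cell: reads for Smart-seq C1 and Smart-seq2, and UMIs for the other 4 methods. Reads were aligned to mm10 with STAR 2.4.0, per the submitters' processing notes. The counter and annotation are not given in the sources used here. Of 38924 mouse gene IDs in the table, 37607 were matched to a symbol by a gene ID table, and 92 spike-ins stayed out of library sizes.

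The ranking genes and the gene lists were chosen with earlier results of these data known. Cells were ranked within a library, and the counts of the top 1 in 3 and of the bottom 1 in 3 cells were summed, which gave 24 sums. Both sums of a pair come from the same library, so library was a block in the main design. The deposited counts were tested with edgeR 4.0.16 (quasi-likelihood, robust, TMM, filterByExpr by class), with p-values adjusted by Benjamini-Hochberg over all genes tested and a threshold of 0.05. The ranking genes were left out of the tests. The same model was fitted to the 4 full-length and the 8 tag libraries, and an interaction gave their difference. DESeq2 1.42.0 and limma 3.58.1 (voom) were alternatives, as were other rankings, filters and scalings, and leaving out libraries or methods. Technical values were tested by exact sign flips over the 12 pairs (4096 assignments, two-sided). CPM in the text is a class's summed count per 1e6 endogenous counts of that class. Depth per class is given with the results and sets the precision of low genes. The fits were also run on counts simulated from the means and spread of these data.

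Genes were named where they passed adjustment, had the smallest p-values or the highest level of a list, stood in a fixed list of response genes, or had their promoter stretch printed (Nupr1, Gars, Aars, Tars and Herpud1). Those chosen after their values were seen are marked, and are Slc1a4, Trh, Pck2, Ndufa4l2 and Spp1. Doublets were not called; cells above 2 times their library's median count were left out in an alternative. Promoter windows are from RefSeq (GRCm38.p6), and gene positions and overlaps from GENCODE M21 on the same assembly.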

Additional observations from a re-analysis of the deposited data

Results flagged for a closer look

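In groups of 4 or 8 libraries, a library was singled out where its difference between high and low cells, on the log2(CPM + 1) scale for genes, stood far from the others by Dixon's test. Chance singles out about 1 in 20 groups. Among the full-length libraries 3 of 56 values were singled out (5.36%), and among the tag libraries 8 of 56 (14.3%).

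Tpi1 had -0.0176 in Smart-seq C1 A, against 0.36 to 0.40 in the other full-length libraries. Slc1a4 had 1.38 in Smart-seq C1 B, against 2.99 to 3.07 in the others. Cebpb had 1.31 in Smart-seq2 A, against -0.03 to 0.10. Among tag libraries, Drop-seq B stood apart for Eif4ebp1 at -0.65 (others 0.02 to 0.39), for Pycr1 at 4.54 (others -0.56 to 1.76) and for Tbx3 at 1.75 (others -0.10 to 0.70). Aldh18a1 had 5.06 in MARS-seq A (others -1.89 to 1.03), Slc3a2 had -0.32 in CEL-seq2 B (others 0.16 to 0.47), and Cebpg had 2.08 in Drop-seq A (others -0.62 to 0.35). Pycr1 and Cebpg were too low to be tested in the tag fit. Aldh18a1 reached that fit's cutoff of 27.5 CPM in 5 of 8 high sums and 3 of 8 low sums. The differences of these 3 genes can therefore rest on few UMIs. Slc7a11 had -2.89 in Drop-seq B, from 0 UMIs in high cells and 1 UMI in low cells (others 0 to 1.06). The mitochondrial share of counts in MARS-seq A was 3.74 percentage points lower in high cells, a difference of -3.74, against -0.21 to 1.53 in the other tag libraries.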

How the results depend on the processing

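Against 3 genes called, 0 were called with DESeq2 size factors in edgeR, with the score corrected for depth, with 1 in 2 cells per class, when ranked on the 3 stress genes, without Smart-seq2, without MARS-seq, and in the tag or the full-length libraries alone. Without the replicate block of library 0 were called, with 8 at an unadjusted p below 0.05, of them 2 of 16 ATF4-list genes and 0 of 23 cytosolic synthetases. The count was 1 without cells above 2 times the median count, without SCRB-seq and without Drop-seq, 5 when ranked on thinned cells, 9 with 1 in 4 cells per class and without Smart-seq C1, 10 when ranked on the 4 synthesis genes, 14 when ranked on summed CPM, 24 with no filter on low counts, and 55 with voom. Leaving out 1 library gave 0 to 5 calls over all libraries, 0 to 3 in the tag libraries, 0 to 1 for the difference and 0 to 0 in the full-length libraries. DESeq2 called 8 and voom 5 full-length genes, and voom called 9 tag genes. Mean log values per cell moved the median of all genes to 0.21.

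Of the technical values, the depth difference was 0.0032 with thinned ranking and 0.0447 with the score corrected for depth, and 0.146 to 0.186 with 1 library left out. With 1 library left out, genes at 10000 counts ranged from 42.1 to 66.8, the mitochondrial share from -0.320 to 0.159 (0.159 without MARS-seq A), the ribosomal share from -0.246 to -0.105 and the spike-in share from -1.35 to -0.659. The ribosomal share was 0.0117 with thinned ranking and 0.0532 with the score corrected for depth. The cause was not tested.

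Nupr1, Mthfd2 and Ephx2 kept their direction under every alternative that gave them a value, and passed in 19 of 36, 15 of 38 and 7 of 37 of them. Of 46 named genes 36 never changed sign. Ranking on the 3 stress genes turned Aldh18a1 (-0.0768), Slc7a3 (-0.0323), Sdf2l1 (-0.0866) and Mthfd1l (-0.2061). Ranking on thinned cells turned Nanog (-0.0217), Sesn2 (-0.2436) and Pou5f1 (0.0372). Ranking on the 4 synthesis genes turned Cebpg (-0.0559), Sesn2 (-0.2322), Sox2 (-0.0419) and Pou5f1 (0.0255), and ranking on summed CPM turned Sesn2 (-0.1354), Sox2 (-0.0879) and Pou5f1 (0.1095). Mean log values per cell turned Cenpa (0.0082), Sox2 (-0.0184) and Pou5f1 (0.2451), and voom turned Sox2 (-0.012) and Pou5f1 (0.0145). Sesn2 was also turned without CEL-seq2 (-0.0169), without MARS-seq (-0.0404) and in full-length libraries alone (-0.2492). Mthfd1l was turned without Smart-seq2 (-0.0073), without MARS-seq (-0.0875) and in full-length libraries alone (-0.0971). Sox2, at 0.00, became -0.0075 with DESeq2 and with its size factors, -0.0077 with no TMM, -0.0103 with the score corrected for depth, -0.0394 with 1 in 4 cells per class, -0.0256 without Smart-seq C1, -0.0395 without CEL-seq2, -0.0055 without Drop-seq and -0.0535 in full-length libraries alone. Pou5f1, at -0.02, became 0.0197 with no filter, 0.0861 with no replicate block, 0.0541 with 1 in 2 cells per class, 0.0104 without large cells, 0.0342 without Smart-seq C1, 0.054 without SCRB-seq and 0.0285 in tag libraries alone. Leaving out 1 library gave -0.0518 to 0.0178 for Pou5f1, -0.047 to 0.0302 for Sox2, -0.0113 to 0.1797 for Sesn2, -0.0288 to 0.0993 for Mthfd1l, 0.2695 to 0.5585 for Aldh18a1 and 0.1406 to 0.4796 for Cebpg. The cause was not tested.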
